A study of Mus musculus with 51 samples.

Results

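The Hox genes encode homeodomain transcription factors and lie in mammals in 4 clusters, HoxA to HoxD. Of the mouse Hox genes, 38 were followed here, namely 10 of HoxA, 10 of HoxB, 9 of HoxC and 9 of HoxD, out of 18193 gene symbols named on the array. They were taken by symbol through the platform annotation, with the brightest probe set standing for a gene in each cell type, and were read by cluster and by paralogue position, the number in the gene name. Of the 38 genes, 33 have a probe set of their own and 5 (Hoxa6, Hoxb8, Hoxc11, Hoxc12 and Hoxd4) do not.

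The series holds 51 Affymetrix microarrays, 3 for each of 17 groups. The series asks how losing or adding a member of the HMGN family, small nuclear proteins that bind nucleosomes, changes transcription. Primary mouse embryonic fibroblasts (MEFs) of C57BL/6 mice gave 18 arrays: knock outs (KO) of HMGN1, HMGN3 or HMGN5, each with a wild-type (WT) group of its own. SV40-transformed MEFs gave 24 arrays and MIN6, a line grown from a mouse insulinoma that keeps traits of beta cells, gave 9. Both lines were infected with retrovirus in 5 µg/ml polybrene, selected in 1 µg/ml puromycin for 7 days and left 24 h without it, the empty vector controls included, and were collected as pools rather than clones. The SV40 pools carried the empty vector, HMGN1, HMGN2, HMGN3a, HMGN5, HMGN5SE or an HMGN1 construct named N2swap or N3swap, and the MIN6 pools the empty vector, HMGN1 or HMGN3a. The submitters describe the added HMGN protein as about doubled. The labels do not say what SE means, what was exchanged in the swaps, which part of a gene a knock out lacks, or whether a group's 3 arrays stem from different cultures or animals. The p-values therefore measure only the spread between these arrays.

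Within a cluster the Hox genes stand in the order of their paralogue number, and in the embryo the low-numbered (anterior) genes are switched on earlier and nearer the head than the high-numbered (posterior) ones. Fibroblasts keep part of this pattern after they leave the body, so that a culture's Hox genes are known to record the site it came from. Polycomb complexes hold the clusters silent, Trithorax/MLL complexes keep them active, retinoic acid switches on the anterior genes first, and the Pbx, Meis and Pknox proteins are cofactors that bind DNA together with Hox proteins.

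The proximal promoters of 4 members on which the results turn are shown first. Hoxa5 was the member that differed most between WT groups, a probe set of Hoxa9 rose most with HMGN5, Hoxa11 had the largest called difference between the HMGN3 and HMGN5 knock out effects, and Hoxc4 changed in 3 SV40 pools. Each line is the 250 bases before the start of the gene, 5′ to 3′ on the gene's own strand, from RefSeq (build GRCm38.p6). Hoxa5 is at chr6:52204588-52204837, Hoxa9 at chr6:52227371-52227620 and Hoxa11 at chr6:52245811-52246060, all on the minus strand, and Hoxc4 is at chr15:103034145-103034394 on the plus strand. Capitals mark the homeodomain core TAAT, or ATTA, which is the same core read on the other strand.
Hoxa5: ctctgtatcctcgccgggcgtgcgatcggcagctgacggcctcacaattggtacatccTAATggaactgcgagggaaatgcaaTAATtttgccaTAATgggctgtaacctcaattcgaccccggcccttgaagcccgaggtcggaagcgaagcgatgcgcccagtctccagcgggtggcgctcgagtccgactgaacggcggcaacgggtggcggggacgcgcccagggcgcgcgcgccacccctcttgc
Hoxa9: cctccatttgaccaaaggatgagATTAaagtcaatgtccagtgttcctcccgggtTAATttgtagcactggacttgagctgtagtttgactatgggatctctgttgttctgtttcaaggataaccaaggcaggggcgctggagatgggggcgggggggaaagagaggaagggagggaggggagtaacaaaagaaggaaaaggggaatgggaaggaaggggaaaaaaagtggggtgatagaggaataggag
Hoxa11: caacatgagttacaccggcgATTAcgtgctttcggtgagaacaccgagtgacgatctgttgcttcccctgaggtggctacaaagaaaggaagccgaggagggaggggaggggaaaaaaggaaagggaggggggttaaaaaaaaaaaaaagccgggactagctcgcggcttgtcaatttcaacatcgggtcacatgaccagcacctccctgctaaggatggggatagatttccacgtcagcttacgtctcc
Hoxc4: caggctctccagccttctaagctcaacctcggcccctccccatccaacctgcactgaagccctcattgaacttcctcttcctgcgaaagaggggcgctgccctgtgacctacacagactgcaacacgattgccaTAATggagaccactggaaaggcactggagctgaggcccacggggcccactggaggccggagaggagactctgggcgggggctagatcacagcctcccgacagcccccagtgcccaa
The Hoxa5 window held 3 cores, the Hoxa9 window 2, and those of Hoxa11 and Hoxc4 1 each. A core stood in 18 of the 24 promoter windows found for 22 of the members (75%), and in 54.9% of 32851 windows of all genes. The median number of CG dinucleotides per window was 12.5 in the Hox windows and 6 in all, and was 28 for Hoxa5, 3 for Hoxa9, 13 for Hoxa11 and 8 for Hoxc4. These matches describe letters in the windows and are not measured binding sites.

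The deposited intensities were made comparable within a cell type only, with an array median of 5.47 to 5.93 (primary MEFs), 18.7 to 19.6 (SV40 MEFs) or 55.5 to 57.6 (MIN6), so no level was compared across them. All values below are log2 intensities, and a change is a difference of group means on the log2 scale with its standard error, from limma, n = 3 arrays per group. A gene counted as called at a limma adjusted p below 0.05 over all genes tested in its cell type. Counts at an unadjusted p below 0.05 are given without a share of all genes at that threshold. They cannot be set against the shares of called genes, and no excess is read from them. Probe sets whose highest group mean lay under the 40th percentile were left out as dim, which set a floor of log2 1.99 for primary MEFs, 3.63 for SV40 MEFs and 5.13 for MIN6. Where 1 group lay below that floor, its difference is given as "at least". The filter left 25, 22 and 15 members, and 14 were tested in all 3 cell types. Of the 25 in primary MEFs, 23 were above the floor in every group, while Hoxd11 passed through HMGN3 WT alone. Of the 22 in SV40 MEFs, 17 were above it in every group, and Hoxa10 and Hoxb5 passed only through the HMGN5 pool, where they are high. In MIN6 cells 10 of the 15 were above the floor in every group, and Hoxb13 and Hoxd8 passed only through the HMGN1 pool. The arrays measure RNA of whole cultures, so that fewer cells with a transcript and less of it per cell cannot be told apart.

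Checks of the labels came out unevenly. Hmgn1 was lower in the HMGN1 knock out (11.19 to 11.33 in WT, 10.56 to 10.63 in KO), and Hmgn3 was lower in the HMGN3 knock out (7.48 to 7.59 against 6.22 to 6.27). Hmgn5 was higher in the arrays labelled HMGN5 knock out (4.80 to 5.21 in WT, 5.59 to 5.84 in KO), against the label, so those 3 arrays are called by their label throughout. In the construct pools Hmgn1 differed by -0.01 (SV40) and -0.03 (MIN6) with HMGN1, neither called, and Hmgn3 by -0.23 (SV40, not called) and 0.23 (MIN6, called) with HMGN3a. Whether these probe sets detect the constructs is not given in the sources used here. Hmgn5 was lower with HMGN5 in SV40 MEFs, by -0.93. Hmgn genes not named in the label were also called in SV40 pools. Hmgn1 was higher with HMGN5 (0.37), and Hmgn3 with HMGN2 (0.29), N2swap (0.38) and N3swap (0.35). Hmgn5 was lower with HMGN1 (-0.29), HMGN2 (-0.26) and N2swap (-0.21). No Hmgn2 value is given here, so the label of the HMGN2 pool has no such check. The sex-linked genes also differed: Xist was 8.56 to 8.63 in HMGN1 WT and 2.40 to 2.78 in HMGN3 WT and HMGN5 WT, and it was mixed among the arrays labelled HMGN1 knock out (3.14, 8.61 and 7.40) and HMGN5 knock out (8.72, 2.60 and 7.69). All 12 fibroblast markers were above the floor in primary MEFs, and all 7 beta cell markers measured were above it in MIN6 cells. In SV40 MEFs the fibroblast markers Lum, Pdgfra, Postn and Thy1 were below the floor in at least 1 group.

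The WT groups of the 3 knock outs differed from one another in their Hox genes, and the differences followed paralogue position in part. HMGN5 WT had more RNA than HMGN3 WT for the anterior and central genes Hoxa2, Hoxa3, Hoxb2, Hoxb3, Hoxc4, Hoxc5 and Hoxa5, and less for 7 posterior genes and Hoxd8. Of the 25 members tested, 15 were called, 7 higher and 8 lower, where 17.2% of all genes were called, 9.9% higher and 7.32% lower. All 4 anterior members tested (positions 1 to 3) were higher, with a median change of 0.58. Of the 10 central ones (positions 4 to 8), 3 were higher and 1 lower, with a median of 0.19. Of the 11 posterior ones (positions 9 to 13), 0 were higher and 7 lower, with a median of -0.41. Hoxd11, 1 of the 11, passed the filter through HMGN3 WT alone, and without it the median was -0.43. The median absolute change was 0.41 over the members and 0.11 over all genes. No overlap between groups was seen for 18 of the 25 members, against 36.5% of all genes. Across the 25 members, position and change had r = -0.70, a description only, since all points come from the same 6 arrays.

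Hoxa5, which helps pattern the lung and the neck and upper thoracic skeleton, differed most. Its arrays read 4.99, 4.53 and 4.58 in HMGN3 WT, 5.93, 6.02 and 6.07 in HMGN1 WT, and 6.88, 7.22 and 7.04 in HMGN5 WT. The 3 groups were ordered without overlap, and HMGN5 WT was above HMGN3 WT by 2.35 ± 0.17 (limma adjusted p = 3.83e-07). Its other probe set differed by 1.44.

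Hoxc13, a posterior gene needed for hair and nails, ran the other way. It read 4.20, 4.01 and 3.84 in HMGN3 WT, 3.28, 3.16 and 3.05 in HMGN1 WT and 2.83, 2.75 and 2.99 in HMGN5 WT. HMGN3 WT was the highest group, and HMGN5 WT lay below it by -1.16 ± 0.15 (limma adjusted p = 8.49e-05).

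Hoxa11 and Hoxc10, which act in limb patterning, shared that direction. Hoxa11 read 4.05, 3.75 and 3.91 in HMGN3 WT and 3.00, 2.89 and 2.95 in HMGN5 WT (-0.96 ± 0.15), and Hoxc10 read 5.87, 5.77 and 5.57 against 4.71, 4.88 and 4.77 (-0.95 ± 0.15). Neither gene had overlapping groups, and their adjusted p were 0.000452 and 0.000327. Hoxc5 was the opposite case, with 4.52, 4.59 and 4.18 in HMGN3 WT and 5.38, 5.26 and 5.26 in HMGN5 WT (0.87 ± 0.13). The remaining called members rose by 0.34 (Hoxb3) to 0.74 (Hoxa2) or had negative changes, from -0.40 (Hoxd9) to -0.89 (Hoxa10). For Hoxd10, HMGN5 WT lay below the floor, and its difference was at least -0.36. Hoxd10 passed in 6 of 11 alternatives, and Hoxb2 and Hoxb3 in 8 each. Where a called member had a further probe set that was called, it had the same direction: 1.53 for Hoxa3, 0.30 for Hoxb3, 0.72 for Hoxc5 and -0.73 for Hoxd8. The probe set shared by Hoxd4 and Hoxd3 was lower by -0.47.

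**Figure D1:**
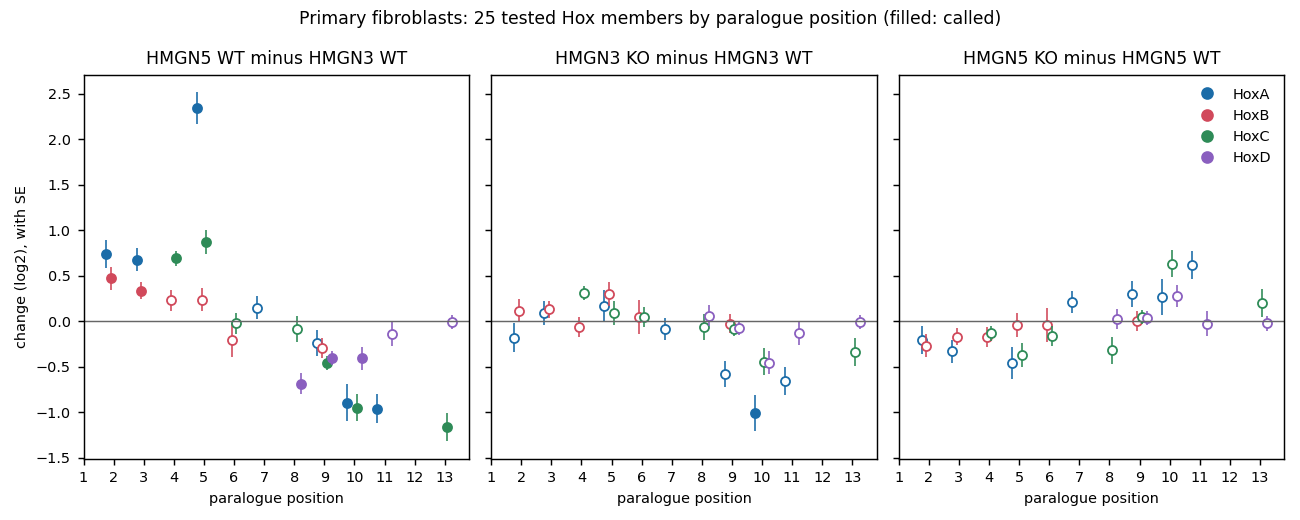
Change of the 25 tested Hox members in primary fibroblasts (log2, with standard error) against paralogue position, coloured by cluster, with called members filled. HMGN5 WT lay above HMGN3 WT at all 4 anterior members and below it at the 10 posterior ones other than Hoxd11. The filter fixed the place of Hoxd11. In the HMGN3 knock out 1 member was called (0.585% of all genes were), and in the HMGN5 knock out 0 (0.0731%).

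**Figure D2:**
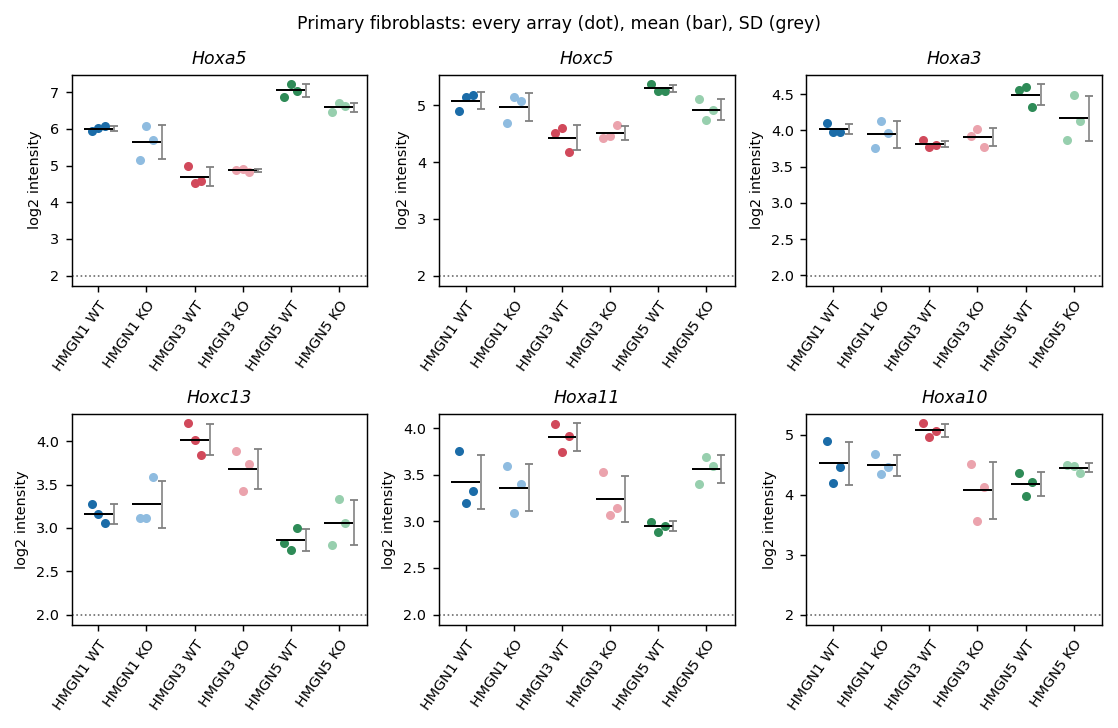
Log2 intensity of 6 Hox members on every array of primary fibroblasts (dots), with the group mean (bar), SD (grey) and the floor of the filter (dotted). Hoxa5 was 4.53 to 4.99 in HMGN3 WT and 6.88 to 7.22 in HMGN5 WT, and Hoxc13 was highest in HMGN3 WT.

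HMGN1 WT lay between the other WT groups for part of these genes. Against HMGN1 WT, HMGN3 WT had 5 members higher and 5 lower, where 31.5% of all genes were called, 11.1% higher and 20.4% lower. The members' share was 20% in each direction, which for the lower ones is near that of all genes. For 14 of 25 members the arrays of the groups were fully apart, against 46.2% of all genes. Hoxa5 (-1.31 ± 0.17), Hoxc5 (-0.65), Hoxc4 (-0.53), Hoxa2 (-0.47) and Hoxb9 (-0.32) were lower. The higher ones were Hoxc13 (0.86), Hoxa10 (0.55), Hoxa11 (0.48), Hoxd8 (0.40) and Hoxd9 (0.31), and the arrays of Hoxa11 overlapped. Under the 11 alternatives Hoxa10 passed in 4 (change 0.37 to 0.74), Hoxb9 in 5 (-0.37 to -0.07), Hoxa11 in 6 (0.09 to 0.64) and Hoxa2 in 7 (-0.82 to -0.34). Hoxa10, which patterns the lumbar spine and the uterus, read 5.19, 4.97 and 5.06 in HMGN3 WT and 4.90, 4.20 and 4.47 in HMGN1 WT, without overlap. Between HMGN5 WT and HMGN1 WT, 2 members were higher and 3 lower, where 11.7% of all genes were called, 4.71% higher and 7.01% lower, and 13 of 25 had groups without overlap, against 34.4% of all genes. Hoxa5 (1.04 ± 0.17) and Hoxa3 (0.47) rose, and Hoxc10 (-0.82 ± 0.15), Hoxb9 (-0.61) and Hoxc9 (-0.26) fell. Under the 11 alternatives Hoxc9 passed in 1 (change -0.30 to -0.08) and Hoxa3 in 6 (0.30 to 0.56). Hoxb9, which patterns the thorax with its paralogues, read 6.28, 6.46 and 6.43 in HMGN1 WT, 6.14, 6.06 and 6.01 in HMGN3 WT and 5.83, 5.72 and 5.78 in HMGN5 WT, 3 groups without overlap. The 3 WT comparisons share arrays and are not independent of one another. The count of 10 fell to 6 without HMGN1 WT replicate 3, and the count of 5 fell to 3 without HMGN1 WT replicate 3 or HMGN5 WT replicate 2. With an estimate of the male share of each culture (from sex-linked genes) as a covariate, the count of 10 was 6.

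Some genes that act with or upstream of the Hox clusters differed between HMGN5 WT and HMGN3 WT, where 17.2% of all genes were called, 9.9% higher and 7.32% lower. Rarb, a retinoic acid receptor that is itself a retinoic acid target, was the 1 called gene among 6 upstream regulators and was higher in HMGN5 WT than in HMGN3 WT by 2.42 (limma adjusted p = 6.2e-09). Of 8 cofactors, 4 were higher and 0 lower: Pknox2 (1.16), Meis2 (0.63), Pbx3 (0.45) and Meis1 (0.29). Polycomb repressive complex 1, which marks histone H2A, had 3 of 16 genes higher and 1 lower (Pcgf5, -0.37), and complex 2, which methylates histone H3, had 2 of 11 higher, Mtf2 (0.28) and Suz12 (0.20). Of 12 Trithorax/MLL genes 1 was higher (Psip1, 0.25). Of 18 genes that flank the clusters, 3 were higher, with Skap2, next to HoxA, at 0.56. Markers of other cells moved with these groups. The summed level of the 10 macrophage and leukocyte markers was 8.61 to 8.74 in HMGN1 WT, 9.85 to 9.98 in HMGN3 WT and 8.85 to 9.70 in HMGN5 WT, and Itgam was below the floor. The summed neural markers were 8.15 to 8.22, 7.01 to 7.07 and 7.78 to 7.80 in the same order. The summed fibroblast markers were 14.86 to 14.91 in HMGN3 WT and 14.77 to 14.84 in HMGN5 WT, with 2 of 12 higher and 6 lower in HMGN5 WT. Their part in the Hox differences was not tested.

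The knock outs moved few Hox genes past the test. In the HMGN3 knock out, 1 of 25 members was called, where 0.585% of all genes were, 0.483% higher and 0.102% lower. Hoxa10 read 5.19, 4.97 and 5.06 in HMGN3 WT and 4.52, 3.56 and 4.13 in the knock out. The groups did not overlap, and the change was -1.0 ± 0.20 (limma adjusted p = 0.0312). It passed in 5 of 11 alternatives, with adjusted p from 0.00217 to 0.134. Leaving out 1 array ended the call for 5 of the 6 arrays of the comparison (both other knock out arrays and each of the 3 WT arrays), and leaving out HMGN3 KO replicate 1 gave 3 called members.

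Other posterior members lay lower in the HMGN3 knock out without passing the test. Hoxa11 differed by -0.66 ± 0.15 (adjusted p = 0.0815), Hoxa9, a gene of blood progenitors and the lower trunk, by -0.58 ± 0.14 and Hoxc10 by -0.44 ± 0.15. Apart from Hoxd11, which passed the filter through HMGN3 WT alone, the 10 posterior members had values below 0, with a median of -0.39, and the median was 0.10 over the anterior members and 0.06 over the central ones. The groups did not overlap for 9 of 25 members, against 15.9% of all genes. The largest positive value was that of Hoxc4 (0.31 ± 0.08, adjusted p = 0.136).

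In the arrays labelled HMGN5 knock out, 0 of 25 members were called by limma, where 0.0731% of all genes were. At an unadjusted p below 0.05 there were 7, a looser threshold to which that share does not apply. Hoxc10 read 4.71, 4.88 and 4.77 in HMGN5 WT and 5.48, 5.36 and 5.44 in the knock out, a difference of 0.64 ± 0.15 (limma adjusted p = 0.201). Hoxa11 read 3.00, 2.89 and 2.95 against 3.40, 3.69 and 3.60 (0.62 ± 0.15, limma adjusted p = 0.257). Neither gene had overlapping groups, and neither difference passed. At the other end stood Hoxa5 (-0.46 ± 0.17) and Hoxc5 (-0.37 ± 0.13). The median was -0.23 over the 4 anterior members, -0.15 over the 10 central and 0.20 over the 11 posterior ones (0.24 without Hoxd11), and the groups did not overlap for 8 of 25 members, against 11.1% of all genes.

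In the HMGN1 knock out, 0 of 25 members were called by limma, where 0.439% of all genes were, and 1 had an unadjusted p below 0.05. The values ran from -0.37 (Hoxa5) to 0.27 (Hoxb5), and the medians of the 3 position classes ran from -0.03 to 0.03. No overlap between groups was seen for 2 of 25 members, against 21% of all genes. Among the cofactors, Polycomb, Trithorax, upstream and flanking genes, 0 were called by limma in any of the 3 knock outs, and the count at an unadjusted p below 0.05 was at most 5 in a list.

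A further test set the effect of the HMGN3 knock out against that of HMGN5. The difference was called for 2 of 25 members, where 0.424% of all genes were, 0.293% higher and 0.132% lower. They were Hoxa11 (-1.27 ± 0.22, limma adjusted p = 0.0193) and Hoxc10 (-1.08 ± 0.21, limma adjusted p = 0.0339). Against their own WT, both genes had a negative value in the HMGN3 knock out and a positive one in the arrays labelled HMGN5 knock out, none of which passed alone. Hoxa11 read 3.53, 3.07 and 3.14 in the HMGN3 knock out and 3.40, 3.69 and 3.60 in that labelled HMGN5, groups that overlap, while their WT groups lay 0.96 apart. Hoxc10 likewise read 5.45, 5.03 and 5.39 in the one and 5.48, 5.36 and 5.44 in the other. Each effect contains its WT group, so the WT difference and the difference between effects rest on shared arrays. Hoxa11 passed in 11 of 17 alternatives (adjusted p 0.00586 to 0.0718) and Hoxc10 in 8 of 17 (0.0186 to 0.104). The count of 2 became 0 without HMGN3 KO replicate 2 or 3, HMGN3 WT replicate 1, HMGN5 KO replicate 3, or HMGN5 WT replicate 2 or 3. It became 4 without HMGN3 KO replicate 1, and 1 without HMGN3 WT replicate 2, HMGN5 KO replicate 1 or HMGN5 WT replicate 1. Between the HMGN1 knock out and the other knock outs, 0 of 25 differences were called by limma (where 0.505% of all genes were against HMGN3 and 0.161% against HMGN5), with 4 and 7 at an unadjusted p below 0.05.

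In SV40 MEFs Hox genes of 3 clusters rose in the HMGN5 pool. Against the empty vector, 12 of 22 members were higher and 0 lower, where 41.5% of all genes were called, 20.7% higher and 20.8% lower. Of the 12, 5 were HoxA genes (of 6 tested, Hoxa10 included), 5 HoxB (of 8, Hoxb5 included), 2 HoxC (of 5) and 0 HoxD (of 3). The median over the members was 0.26, and over all genes -0.01. Hoxa10 and Hoxb5 are among the 12 and passed the filter only because the HMGN5 pool is above the floor, which fixes their direction. Without them 10 of 20 members were higher, with a median of 0.23, a choice made after seeing the data.

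Hoxc6, a gene of the thorax and the mammary gland, read 4.23, 4.73 and 4.19 in the vector pool and 7.44, 7.44 and 7.26 in the HMGN5 pool. Groups did not overlap, in one direction or the other, for 13 of 22 members (59.1%), Hoxa10 and Hoxb5 included, near the 56.2% of all genes. For Hoxc6 every HMGN5 array lay above every vector array, and the change was 3.00 ± 0.11 (limma adjusted p = 1.53e-15). This probe set is of the x_at kind, whose probes can also match other transcripts. A further Hoxc6 probe set rose by 2.36, and another, dimmer one by 0.27, which was not called.

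Hoxb6, active in trunk mesoderm and early blood cells, was the next. It read 4.68, 4.53 and 4.53 with the vector and 7.46, 7.46 and 7.53 with HMGN5, a change of 2.91 ± 0.10 (limma adjusted p = 2.55e-16). No other pool reached this level: the next highest was HMGN1, at 5.20, 5.14 and 5.28.

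Hoxa10 read 2.69, 2.83 and 2.77 with the vector, below the floor, and 5.16, 5.34 and 5.04 with HMGN5, which makes it at least 1.55 higher. Hoxc4 read 5.26, 5.31 and 5.25 with the vector and 6.84, 6.88 and 6.84 with HMGN5 (1.58 ± 0.09). Hoxb5 was at least 0.45 higher, from 2.59, 2.77 and 2.77 to 4.10, 4.0 and 4.12. These genes sit at positions 4 to 10. None of them had overlapping groups, which for Hoxa10 and Hoxb5 the filter favoured. The other called members were Hoxb2 (1.28), Hoxb3 (0.88), Hoxa7 (0.85), Hoxa9 (0.76), Hoxa3 (0.31), Hoxa5 (0.28) and Hoxb9 (0.21). Under the 11 alternatives Hoxa3 passed in 7 and Hoxb9 in 9.

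For Hoxa9 and Hoxa5 the size rests on the probe set. The brightest Hoxa9 probe set rose by 0.76 ± 0.14, while the other read 3.28, 3.27 and 3.09 with the vector, below the floor, and 8.25, 8.34 and 8.18 with HMGN5, at least 4.63 higher. In the 6 other construct pools that second probe set stayed between 2.78 and 3.81. The brightest Hoxa5 probe set, also of the x_at kind, rose by 0.28, and the other rose by 1.97, from 3.99, 3.75 and 3.94 to 5.95, 5.74 and 5.89. A second probe set of Hoxb3 rose by 1.66, that shared by Hoxb8 and Hoxb7 by 1.04, and one of Hoxc5 by at least 0.36. The brightest Hoxc5 probe set was not called (0.22).

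**Figure D3:**
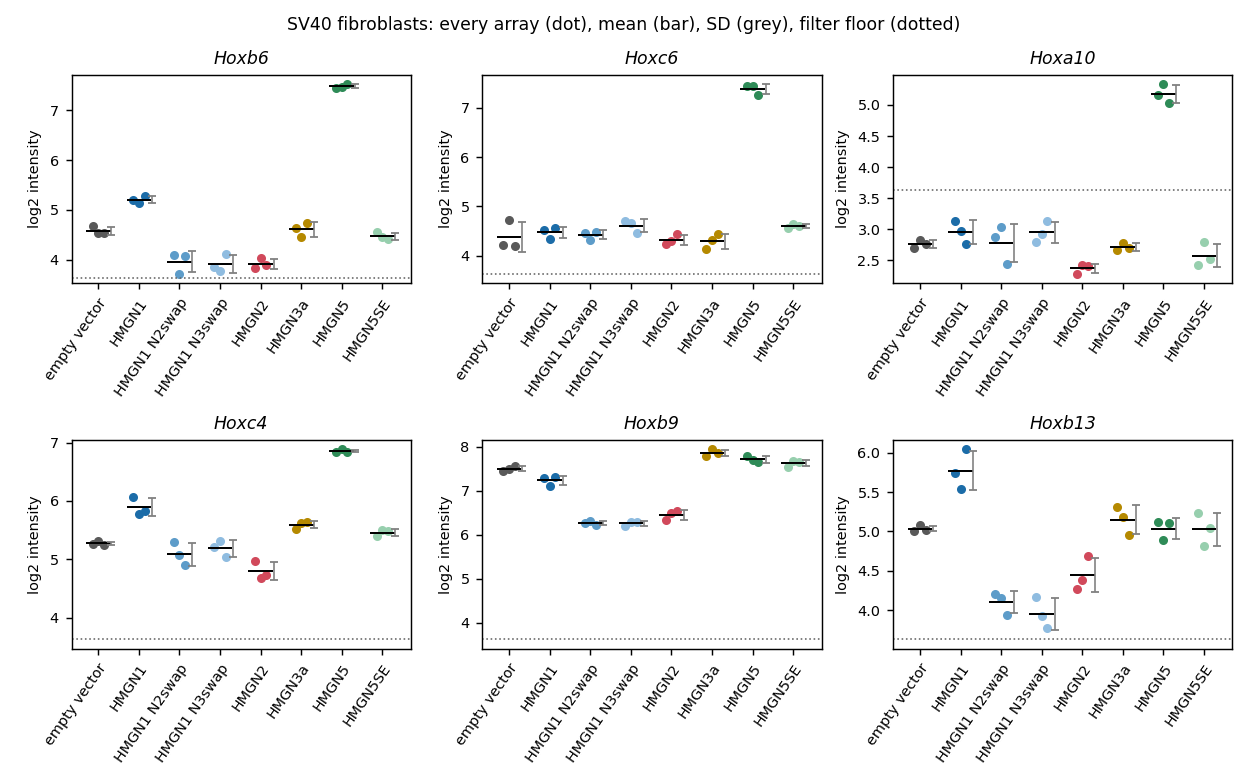
Log2 intensity of 6 Hox members on every array of the SV40 pools (dots), with the group mean (bar), SD (grey) and the floor of the filter (dotted). Hoxb6, Hoxc6 and Hoxc4 were highest in the HMGN5 pool, as was Hoxa10, whose place the filter fixed. Hoxb9 and Hoxb13 were lowest in the HMGN2 pool and both swap pools.

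The HMGN5SE pool did not share these levels. Against the vector, 0 of 22 members were called by limma (0.0148% of all genes were), and 1 had an unadjusted p below 0.05. For 3 of 22 members the arrays of the groups were fully apart, against 15.3% of all genes. Tested directly against HMGN5, 11 members were lower (9 of 20 without Hoxa10 and Hoxb5, whose direction the filter fixes) and 2 higher, where 42% of all genes were called, 22.2% higher and 19.8% lower. Over all 22 members, Hoxa10 and Hoxb5 kept, the groups did not overlap for 14, against 57.2% of all genes. Hoxb6 read 4.55, 4.45 and 4.42 with HMGN5SE (-3.01 ± 0.10 against HMGN5), and Hoxc6 read 4.56, 4.65 and 4.60 (-2.78 ± 0.11). Both lay near the vector arrays and far below all HMGN5 arrays. The 2 higher members were Hoxc9 (0.26) and Hoxb4 (0.21), which passed in 9 and 7 of 11 alternatives.

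Genes that act with the clusters changed in the HMGN5 pool in both directions. Of 8 cofactors 4 were higher, among them Meis2 (1.32), Meis1 (0.79) and Pbx3 (0.31), and 2 lower, Pknox2 (-0.41) and Pbx2 (-0.32). In Polycomb repressive complex 1, 5 of 16 were higher, with Cbx6 (0.73), Cbx2 (0.55) and Phc1 (0.54), and 3 lower, with Pcgf5 (-0.52) and Bmi1 (-0.46). In complex 2, 3 of 11 were higher, Ezh1 (0.45), Phf1 (0.40) and Rbbp4 (0.34), and 2 lower, with Jarid2 (-0.55). Trithorax/MLL and linked genes had 6 of 12 lower, among them the histone H3 demethylase Kdm6a (-1.14) and the methyltransferase Dot1l (-0.78), and 1 higher, Rbbp5 (0.35). Of 6 upstream regulators limma called 0, with 1 at an unadjusted p below 0.05, and of 17 flanking genes 4 were higher, with Skap2 at 0.50. These counts stand beside the 41.5% of all genes called in this comparison.

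Fibroblast markers moved with HMGN5 too. Their summed level was 13.82 to 13.87 in the vector pool, 14.72 to 14.75 with HMGN5 and 13.81 to 13.83 with HMGN5SE, and 8 of 11 were higher with HMGN5 and 1 lower. The summed neural markers were 7.93 to 7.98 with the vector and 8.69 to 8.80 with HMGN5. The fibroblast sum was also raised with HMGN2 (14.43 to 14.54), where the Hox genes were lower. Their part in the Hox changes was not tested. The probe set of Hmgn5 itself read 8.47 to 8.69 with the vector and 7.59 to 7.64 with HMGN5.

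The HMGN2 pool had 12 members lower and 0 higher, where 44.3% of all genes were called, 18.7% higher and 25.6% lower. No overlap between groups was seen for 16 of 22 members, against 56.4% of all genes. The median over the members was -0.29 and over all genes -0.06. Without Hoxa10 and Hoxb5, 11 of 20 were lower. Hoxb9 read 7.45, 7.50 and 7.56 with the vector and 6.33, 6.50 and 6.54 with HMGN2, without overlap (-1.05 ± 0.07, limma adjusted p = 6.14e-11). Hoxb6 read 3.82, 4.03 and 3.90 with HMGN2, again below all vector arrays (-0.66 ± 0.10). Hoxb13, a posterior gene known from the prostate and tail, read 5.01, 5.08 and 5.02 with the vector and 4.27, 4.39 and 4.69 with HMGN2 (-0.59 ± 0.14). Hoxb2, which patterns the hindbrain, read 5.58, 5.45 and 5.42 against 4.66, 5.10 and 5.06 (-0.54 ± 0.13). All 4 are HoxB genes, and of the 12 lower members 6 were HoxB (of 8 tested), 4 HoxA (of 6), 2 HoxC (of 5) and 0 HoxD (of 3). The others ran from -0.26 (Hoxb4) to -0.50 (Hoxa5). For Hoxa4 and Hoxa10 both groups lay below the floor, so their calls have no size.

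In the HMGN2 pool the counts of the other lists stand beside 18.7% of all genes higher and 25.6% lower. Polycomb repressive complex 2 had 4 of 11 lower, with Suz12 (-0.43) and Ezh2 (-0.22), and 0 higher. Complex 1 had 3 of 16 higher, with Pcgf5 (0.57), and 3 lower. The Trithorax/MLL list had 4 of 12 lower, with Dot1l (-0.60) and Dpy30 (-0.41), and 2 higher, Kmt2a (0.41) and Men1 (0.27). Of 8 cofactors 1 was higher, Meis1 (0.49), and 2 lower, Meis2 (-0.51) and Pbx3 (-0.33). Limma called 0 of 6 upstream regulators, with 1 at an unadjusted p below 0.05. Xist was also higher, from 4.70 to 4.91 with the vector to 6.16 to 6.55 with HMGN2.

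**Figure D4:**
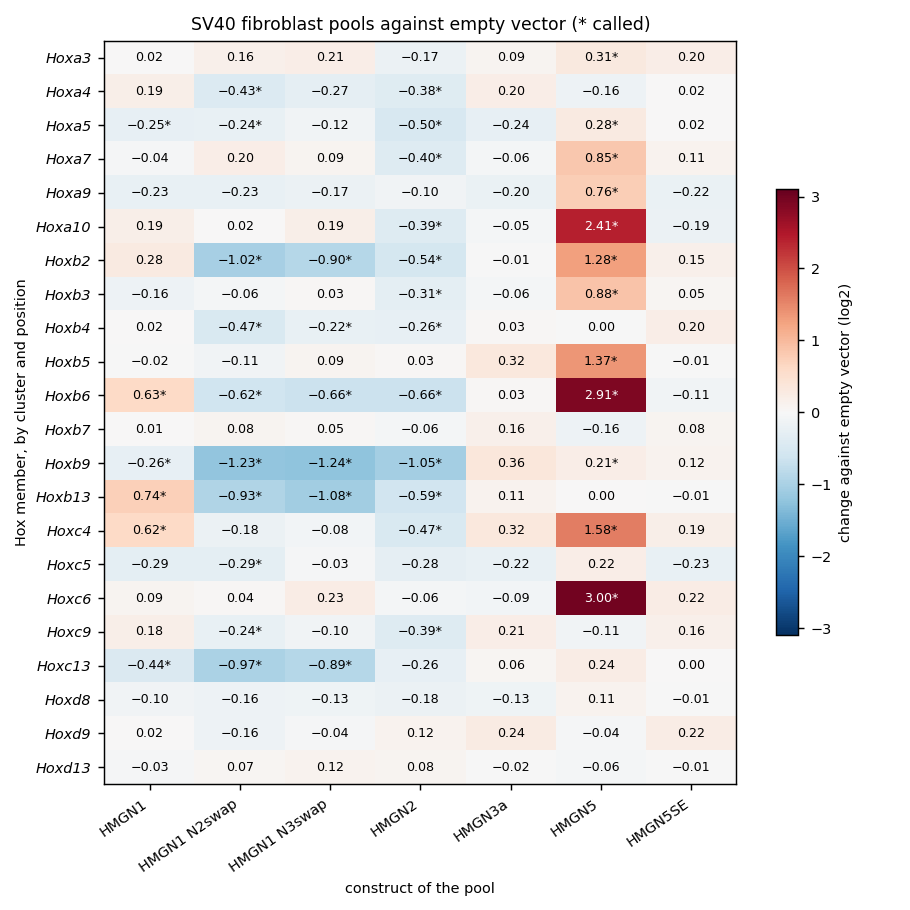
Change of the 22 tested Hox members in each SV40 pool against the empty vector (log2, colour and number), with called members starred. With HMGN5 12 members were higher, Hoxa10 and Hoxb5 included, whose direction the filter fixes (20.7% of all genes were higher). With HMGN2 12 were lower (25.6% of all genes) and with N2swap 10 (19.3%). With HMGN3a and HMGN5SE 0 were called, where 0.0297% and 0.0148% of all genes were.

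Set against each other, the HMGN5 and HMGN2 pools differed in 18 of 22 members, all higher with HMGN5 (16 of 20 without Hoxa10 and Hoxb5, whose direction the filter fixes), where 49.3% of all genes were called, 27.8% higher and 21.5% lower. Over all 22 members, Hoxa10 and Hoxb5 kept, the arrays of the groups were fully apart for 18, against 60.9% of all genes. Hoxb6 was apart by 3.57 ± 0.10 and Hoxc6 by 3.06 ± 0.11. The median over the members was 0.68 (0.55 without Hoxa10 and Hoxb5), against 0.06 over all genes. The 4 members not called were Hoxa4, Hoxb7, Hoxd9 and Hoxd13.

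The HMGN1 pool had 3 members higher and 3 lower, where 29.4% of all genes were called, 17.4% higher and 12.1% lower. In both directions together the members' share was 27.3%, near that of all genes. Hoxb13 read 5.74, 5.54 and 6.04, above all vector arrays (0.74 ± 0.14, limma adjusted p = 0.000301). Hoxb6 read 5.20, 5.14 and 5.28 (0.63 ± 0.10), and Hoxc4 read 6.06, 5.78 and 5.83 (0.62 ± 0.09). Lower were Hoxc13 (5.83, 5.72 and 5.75 against 6.13, 6.34 and 6.16, -0.44 ± 0.11), Hoxb9 (-0.26) and Hoxa5 (-0.25). None of these groups overlapped, nor did those of 9 of 22 members in all, against 49.4% of all genes. The call on Hoxa5 comes from the x_at probe set and passed in 6 of 11 alternatives, and its other probe set was higher by 0.49. Of the lists, Polycomb repressive complex 1 had 5 of 16 higher and 1 lower, complex 2 3 of 11 higher and 0 lower, and the upstream regulators 2 of 6 higher, Ctcf (0.42) and Gmnn (0.39). HMGN2 tested directly against HMGN1 had 11 members lower and 0 higher, where 41.1% of all genes were called (14.9% higher, 26.2% lower). Hoxa10 is among the 11 with both groups below the floor, and without Hoxa10 and Hoxb5 10 of 20 were lower. Groups without overlap were found for 13 of 22 members and 53.4% of all genes. Hoxb13 (-1.32 ± 0.14) and Hoxb6 (-1.29 ± 0.10) were farthest apart.

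Both HMGN1 swap constructs had HoxB genes lower than the vector. With N2swap 10 members were lower and 0 higher, where 37% of all genes were called, 17.7% higher and 19.3% lower. With N3swap 6 were lower and 0 higher, where 37.3% were called, 17.4% higher and 20% lower. In both directions together the N3swap share of members was 27.3%, below that of all genes. Groups without overlap were found for 11 of 22 members with N2swap, against 42.9% of all genes, and for 8 with N3swap, against 46%. Of the 8 HoxB genes tested 5 were lower in each, namely Hoxb2, Hoxb4, Hoxb6, Hoxb9 and Hoxb13. Hoxb9 read 6.26, 6.31 and 6.23 with N2swap and 6.20, 6.30 and 6.30 with N3swap, below every vector array by -1.23 ± 0.07 and -1.24 ± 0.07. Hoxb13 read 4.21, 4.16 and 3.94 with N2swap and 4.17, 3.93 and 3.77 with N3swap (-0.93 ± 0.14 and -1.08 ± 0.14). Neither gene overlapped with the vector, while the pools overlapped with each other. Hoxb2 read 4.48, 4.21 and 4.70 with N2swap and 4.60, 4.81 and 4.36 with N3swap (-1.02 and -0.90). Hoxc13 read 5.23, 4.91 and 5.58, then 5.38, 5.50 and 5.09 (-0.97 and -0.89), again below all vector arrays. The count with N2swap fell to 6 without vector replicate 2. Its further calls were Hoxa5, Hoxc9 (both -0.24), Hoxc5 (at least -0.20, with overlapping arrays) and Hoxa4, with both groups below the floor. Of 11 alternatives, Hoxc5 passed in 4, Hoxa5 and Hoxc9 in 5 each and Hoxa4 in 7. With N3swap, Hoxb4 passed in 6 of 11 (limma adjusted p 0.012 to 0.107).

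Against unaltered HMGN1, N2swap had 9 members lower and 1 higher, where 46.1% of all genes were called (20% higher, 26.1% lower), and N3swap 9 lower and 0 higher, where 50.9% were (22.7% higher, 28.2% lower). Groups without overlap were found for 10 and 11 of 22 members, against 50.1% and 57% of all genes. Counted in both directions, the members' shares are near the background for N2swap and below it for N3swap. Hoxb13 was farthest apart in both, by -1.67 ± 0.14 and -1.82 ± 0.14, followed by Hoxb2 with N2swap (-1.30) and Hoxb6 with N3swap (-1.29). The higher member with N2swap was Hoxa7 (0.25). RNA quality moved with the swap pools, as read from the difference between the 3′ and 5′ probe sets of Actb. It was 0.233 to 0.290 in the vector pool, 0.394 to 0.789 with N2swap and 0.470 to 0.772 with N3swap. With HMGN2 it was 0.0072 to 0.196, below all vector arrays, and in the other pools 0.176 to 0.393. With this difference as a covariate, a choice made after seeing the data, 9 and 5 members were called against the vector. Against the vector, Xist was higher by 2.50 with N2swap and 2.21 with N3swap, and lower with HMGN1 (-0.55) and HMGN5 (-0.56), both called. Its part in the results was not tested. All SV40 pools were compared with the same 3 vector arrays, so their changes are not independent.

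The HMGN3a pool of SV40 MEFs had 0 members called by limma, where 0.0297% of all genes were, and 5 at an unadjusted p below 0.05. Its largest values were those of Hoxb9, which read 7.79, 7.94 and 7.85 against 7.45, 7.50 and 7.56 (0.36), and Hoxc4 (0.32), among members with a group above the floor. The Hoxb9 groups did not overlap, as for 4 of 22 members and 20% of all genes.

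In MIN6 cells the HMGN3a pool had 3 members lower and 1 higher of 15 tested, where 34.1% of all genes were called, 14.5% higher and 19.5% lower. In both directions together the members' share was 26.7%, below that of all genes. The groups did not overlap for 6 of 15 members, against 44.8% of all genes. Hoxb6 read 5.03, 5.43 and 5.70 with the vector and 4.44, 4.49 and 4.04 with HMGN3a, which is below the floor, so that it was at least 0.25 lower (limma adjusted p = 0.000754). Hoxb9 read 6.15, 6.15 and 6.10 against 5.74, 5.25 and 4.64 (-0.92 ± 0.21), and Hoxa7 read 7.41, 7.54 and 7.37 against 7.02, 6.69 and 6.53 (-0.69 ± 0.11). The groups of these 3 genes did not overlap, and the HMGN3a arrays of Hoxb9 were spread more widely than those of the vector. Hoxa3, the higher one (0.23 ± 0.08), had overlapping groups and passed in 3 of 10 alternatives. The dimmer probe set of Hoxa5 read 6.49, 6.23 and 6.30 with the vector and 5.11, 5.04 and 4.90 with HMGN3a, at least 1.21 lower, while the brightest differed by -0.08 and was not called. The probe set shared by Hoxb8 and Hoxb7 was at least 0.09 lower.

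The lists in these cells stand beside 14.5% of all genes higher and 19.5% lower. Of 7 upstream regulators 3 were higher, Cdx2 (0.29), a homeobox gene known to switch on trunk Hox genes, Ctcf (0.28) and Gmnn (0.18), and Rarb was lower, with 1 group below the floor. Of 8 cofactors 3 were higher, with Meis2 (0.40), and 1 lower, Pbx2 (-0.36). In Polycomb repressive complex 1, Cbx8 (-0.52) and Cbx2 (-0.38) were lower and Cbx6 (0.30) and Bmi1 (0.21) higher. Of 18 flanking genes 3 were lower, with Calcoco1 at -0.47. Epithelial markers moved with HMGN3a: 5 of 7 were higher, and their summed level was 12.36 to 12.40 with the vector and 12.85 to 12.96 with HMGN3a. That of the beta cell markers was 15.54 to 15.60 and 15.59 to 15.61. Their part in the Hox changes was not tested.

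With HMGN1 in MIN6 cells 1 member was higher and 0 lower, where 1.15% of all genes were called, 0.493% higher and 0.653% lower. Without adjustment 4 members had p below 0.05. Hoxb13 and Hoxd8 passed the filter only through this HMGN1 pool, which fixes their direction, and without them 1 of 13 members was higher. The counts at unadjusted p and without overlap were taken over all 15. Hoxd9 read 6.14, 6.14 and 6.18 with the vector and 6.43, 6.41 and 6.35 with HMGN1 (0.24 ± 0.05, limma adjusted p = 0.0497). The groups did not overlap, as for 3 of 15 members and 24.7% of all genes, and the call passed in 1 of 10 alternatives (adjusted p 0.0463 to 0.203). Hoxb9 read 6.40, 6.49 and 6.58 with HMGN1, above all vector arrays (0.35), and was not called.

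**Figure D5:**
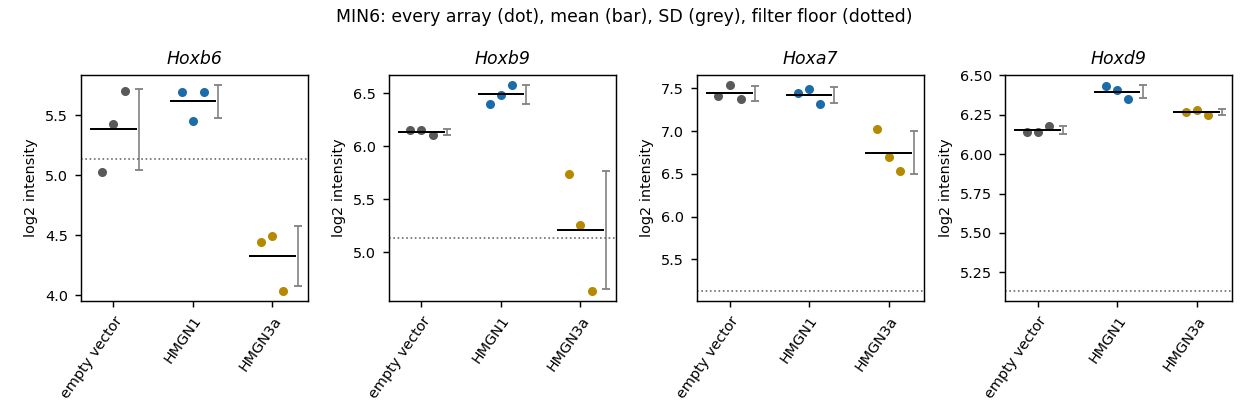
Log2 intensity of 4 Hox members on every array of the MIN6 pools (dots), with the group mean (bar), SD (grey) and the floor of the filter (dotted). Hoxb6, Hoxb9 and Hoxa7 were lowest with HMGN3a, and Hoxd9 was highest with HMGN1.

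Across cell types, Hoxb6 was called in 6 of the 9 comparisons of a construct with its vector in the 2 lines, higher with HMGN5 and HMGN1 and lower with HMGN2 and both swaps in SV40 MEFs, and lower with HMGN3a in MIN6 cells. Hoxb9 was lower with HMGN1, HMGN2 and both swaps and higher with HMGN5 in SV40 MEFs, and lower with HMGN3a in MIN6 cells. The 6 comparisons that called these genes each called 29.4% to 44.3% of all genes, and the others 0.0148% to 1.15%. Those in SV40 MEFs share their vector arrays. Of the 3 HoxD genes tested in SV40 MEFs (Hoxd8, Hoxd9 and Hoxd13) limma called 0 in each of the 7 comparisons with the vector, with at most 1 at an unadjusted p below 0.05. Those comparisons called 0.0148% (HMGN5SE) to 44.3% (HMGN2) of all genes. Of the 5 members with a probe set that was tested in no cell type, and of the 5 without one, nothing is reported beyond their count.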

How the data were processed

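RNA was hybridised to Affymetrix whole-genome mouse arrays. Per the submitters' processing notes the authors used RMA (version not given in the sources used here), and the deposited values are linear intensities, which were log2-transformed here. Of 45101 probe sets, 34945 have 1 gene symbol in the platform annotation, 932 several and 9160 none, and 64 are array controls. The brightest probe set stood for a gene. The 3 cell types were fitted apart on group means with limma 3.58.1 (lmFit and eBayes, no covariate) in R 4.3.3, with Benjamini-Hochberg adjustment over the 13674, 13469 or 13179 genes above the 40th percentile. Depth has no counterpart on arrays, and 3 arrays per group limit the precision. The fit was tested on simulated data. All members could be named, with every array for the called members of largest absolute change (up to 4 in a comparison, 2 between pools or effects) and up to 3 called genes of a list. Further members and genes given in small counts, and arrays of uncalled members, were picked after their values were seen. Alternatives were no filter, every probe set, quantile normalization, the replicate number as a block, only the compared groups, each array left out, and the share of male cells or the Actb 3′ to 5′ difference as a covariate, the last added after seeing the data, as were counts without members that passed the filter through 1 group alone. The members, lists, the floor on dim groups and position classes were chosen with earlier results of these data known. Promoters came from RefSeq (GRCm38.p6) and matched 22 of 38 members.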

Additional observations from a re-analysis of the deposited data

Results flagged for a closer look

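The HMGN3 and HMGN5 knock out effects differed by a direct test for Hoxa11 (-1.27 ± 0.22) and Hoxc10 (-1.08 ± 0.21). Hoxb9 had values of opposite sign in the 2 cell lines. With HMGN1 its difference from the vector was -0.26 in SV40 MEFs, which was called, and 0.35 in MIN6 cells, which was not. With HMGN3a it was 0.36 in SV40 MEFs, not called, and -0.92 in MIN6 cells, called. Every array of one line lay on one side of its vector mean and every array of the other line on the opposite side. The difference between the lines was not tested, since they were fitted apart.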

How the results depend on the processing

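Calls on named members were followed under every alternative but that of every probe set, and none of them changed direction. Between probe sets of a gene the direction could differ, as for Hoxa5 with HMGN1 in SV40 MEFs. Under the other settings that keep every array, 671 values of named genes kept their side of the threshold and 49 lost the call. With an array left out 767 kept it and 115 lost it. Counts of called members changed as follows, and the cause was not tested. With male share as a covariate the HMGN1 knock out had 1, the HMGN1 against HMGN5 effects 1, and HMGN3 WT against HMGN1 WT 6. With the replicate number as a block the HMGN3 knock out had 2, the HMGN1 against HMGN3 effects 1 and MIN6 HMGN1 0. The numbers do not pair the arrays, since deviations of same-numbered arrays had r of -0.34 to 0.21 (primary MEFs), -0.39 to 0.23 (SV40 MEFs) and -0.39 to 0.38 (MIN6). MIN6 HMGN1 also had 0 without a filter, with every probe set and with only the compared groups. With 1 array left out, the counts were 0 for the HMGN1 and HMGN5 knock outs, 0 to 3 for HMGN3, and 0, 0 and 0 to 4 for the 3 differences between effects. They were 6 to 9, 3 to 4 and 12 to 15 for HMGN3 WT against HMGN1 WT, HMGN5 WT against HMGN1 WT and HMGN5 WT against HMGN3 WT. Against the SV40 vector they were 5 to 7 (HMGN1), 10 to 13 (HMGN2), 0 (HMGN3a), 10 to 13 (HMGN5), 0 (HMGN5SE), 6 to 10 (N2swap) and 5 to 6 (N3swap). Between SV40 pools they were 10 to 11 (HMGN2 and HMGN1), 18 (HMGN5 and HMGN2), 10 to 13 (HMGN5SE and HMGN5), 9 to 10 (N2swap and HMGN1) and 8 to 10 (N3swap and HMGN1). In MIN6 cells they were 0 (HMGN1) and 3 to 6 (HMGN3a). Dim probe sets limit the rest: 8, 11 and 18 members lay below the filter in the primary, SV40 and MIN6 data.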
